A study of Mus musculus with 24 samples.

Results

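The proteasome is the cell's main protease for ubiquitin-tagged proteins, and its subunits are encoded by the Psm genes. The genes described here were the probes whose accession maps to a mouse symbol that starts with Psma, Psmb, Psmc, Psmd, Psme or Psmg followed by a number. They came to 49 genes on 60 probes, out of 20022 named genes on 26425 probes of the array, and each gene is given by its brightest probe. The choice used names and brightness only, not any difference between samples. Of the 49, 47 were well above background in the sample channel on all 24 arrays, and Psma8 and Psmb11, whose known expression is restricted to other tissues, were above it on 1 array each and were not tested. Of the 47, Psmb8, Psmb9, Psmb10, Psme1 and Psme2 are the 5 immunoproteasome genes, 40 encode other subunits, activators or assembly chaperones, and Psmc3ip and Psme3ip1 encode proteins that interact with a subunit and are counted apart.

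The core particle is a barrel of alpha rings (Psma) around beta rings (Psmb), in which Psmb5, Psmb6 and Psmb7 carry the protease activity. The regulatory particle unfolds substrates with its ATPases (Psmc) and binds and trims ubiquitin chains with its non-ATPase subunits (Psmd), while Psmg and some Psmd genes encode chaperones that assist assembly and leave. After interferon gamma, Psmb8, Psmb9 and Psmb10 replace the standard catalytic subunits in newly made particles, and Psme1 and Psme2 form a cap that favours peptides for antigen presentation. In cells whose proteasome is overloaded, the membrane-bound factor encoded by Nfe2l1 is released and raises the standard subunit genes together.

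The study asked how strongly the genes of T helper cells depend on transcriptional elongation. Naive CD4+ T cells of female C57BL/6 mice, whose age is not given in the sources used here, were cultured for 13 days under Th1 or Th2 polarizing conditions. Each of the 24 arrays held 1 sample of these cells in the Cy3 channel and naive CD4+CD62L+CD25-CD44lo T cells in the Cy5 channel, with no dye swap. Th1 cells (14 arrays) received the vehicle DMSO, JQ1 at 50 or 500 nM, or flavopiridol at 1 or 10 µM for 6 hr, and Th1 cells also received DMSO or 500 nM JQ1 for 24 hr. Th2 cells (10 arrays) received the same treatments at 6 hr, except that the labels of their DMSO samples give both 6 and 24 hr. These DMSO samples were the control for every Th2 drug sample and the match for Th1 DMSO at 6 hr, so Th2 drug effects and the DMSO values of Th1 against Th2 may hold a difference in time that cannot be told apart. Every treatment was applied to unstimulated and to reactivated cells. JQ1 displaces BET bromodomain proteins from acetylated chromatin, and flavopiridol inhibits P-TEFb, the kinase that releases paused RNA polymerase. There was 1 array per condition, so treatments were compared across contexts (Th1 or Th2, unstimulated or reactivated) that stand in for replicates, and p-values measure only the spread between these arrays.

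Values are log2 ratios of sample over naive cells, and differences between them are log2 differences with the standard error (SE) of the fit. The sample channel was well above background for 35.5% to 52.0% of probes, and for 35.5% to 41.5% on flavopiridol arrays. The reference channel differed between pairs of arrays by an SD of 0.185 (median of 276 pairs). The lineage labels were borne out by 5 of 5 Th1 markers (differences of 5.98 for Ifng and 3.14 for Tbx21). Of 5 Th2 markers 4 did so (Gata3 -2.51, Il4 -3.59), the exception being Il1rl1, which was 1.33 higher in Th1. Ifng was above background on 18 arrays, Tbx21 on 20 and Il4 on 15, so the sizes of their differences are uncertain. The T cell genes Cd3e, Cd3g and Cd4 were above background on every array, and the NK genes Ncr1 and Klrb1c on 1 and 0 arrays. Of the 4 myeloid markers Itgam and Csf1r were above background on all 24 arrays, Cd14 on 3 and Lyz2 on 0, and their summed signal was 4560 to 15500 in Th1 and 7250 to 19200 in Th2 samples. The B cell gene Cd22 was above background on all 24 arrays, and the summed signal of 4 B cell markers was 485 to 1220 in Th1 and 991 to 2720 in Th2 samples. In such bulk RNA, fewer cells of a type and less RNA per cell cannot be told apart. The arrays lay on 3 slides, each unstimulated and reactivated pair on 1 slide, but no slide held flavopiridol with its own DMSO control.

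The promoters of 5 genes are shown because their genes carry the contrast described below: Psmb5 and its inducible counterpart Psmb8, with Psmb9, and the regulatory particle genes Psmd11 and Psmd12. Each run is the 250 bases before the transcription start on the gene's strand, 5′ to 3′, from RefSeq (GRCm38.p6). Capitals mark matches to the motifs searched on both strands: the antioxidant response core TGACNNNGC, the interferon response GAAANNGAA, the gamma activated TTCNNNGAA, the ETS core CCGGAAG and the CCAAT box.
Psmb5 (chr14:54617996-54618245, minus strand): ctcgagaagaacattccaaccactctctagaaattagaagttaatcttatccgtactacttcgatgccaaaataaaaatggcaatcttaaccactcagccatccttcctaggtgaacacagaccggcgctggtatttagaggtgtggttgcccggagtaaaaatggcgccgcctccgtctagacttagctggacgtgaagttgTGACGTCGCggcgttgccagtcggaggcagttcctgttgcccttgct
Psmb8 (chr17:34197945-34198194, plus strand): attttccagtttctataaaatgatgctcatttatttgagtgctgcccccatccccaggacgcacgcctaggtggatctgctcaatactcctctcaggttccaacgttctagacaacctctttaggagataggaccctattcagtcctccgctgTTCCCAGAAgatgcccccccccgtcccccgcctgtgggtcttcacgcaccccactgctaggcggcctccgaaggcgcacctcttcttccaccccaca
Psmb9 (chr17:34187331-34187580, minus strand): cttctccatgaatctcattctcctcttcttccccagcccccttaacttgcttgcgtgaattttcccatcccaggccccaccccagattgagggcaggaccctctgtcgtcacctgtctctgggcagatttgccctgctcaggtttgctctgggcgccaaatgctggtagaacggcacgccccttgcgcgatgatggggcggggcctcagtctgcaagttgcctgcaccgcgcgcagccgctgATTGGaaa
Psmd11 (chr11:80428365-80428614, plus strand): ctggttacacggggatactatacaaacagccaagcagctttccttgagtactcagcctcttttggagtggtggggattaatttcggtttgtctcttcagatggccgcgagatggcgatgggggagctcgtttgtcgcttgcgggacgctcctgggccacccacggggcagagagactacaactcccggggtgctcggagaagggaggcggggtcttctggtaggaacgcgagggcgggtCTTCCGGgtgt
Psmd12 (chr11:107479278-107479527, plus strand): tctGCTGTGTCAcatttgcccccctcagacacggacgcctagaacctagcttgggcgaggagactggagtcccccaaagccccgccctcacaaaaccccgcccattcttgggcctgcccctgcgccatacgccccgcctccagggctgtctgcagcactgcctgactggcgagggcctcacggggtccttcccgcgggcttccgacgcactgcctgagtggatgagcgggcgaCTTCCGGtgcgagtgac
Psmb5 has an antioxidant response core 39 bases before the start. Psmd12 holds one 239 bases before it, and an ETS core 11 bases before it. Psmd11 has an ETS core 5 bases before the start, Psmb8 a match to the gamma activated pattern 89 bases before it, and Psmb9 a CCAAT box 4 bases before it. Promoters were at hand for 33 of the 40 other proteasome genes and for all 5 immunoproteasome genes. The ETS core lay in 12 of those 33 (36.4%) and in 0 of the 5, against 15.5% of the 10056 expressed genes with a promoter and 7.83% of all 27025 genes. The antioxidant response core lay in 5 of 33 (15.2%) and 0 of the 5, against 13.8% and 11.5%. The interferon response motif lay in 3 of 33 (9.09%) and 0 of the 5, against 7.46% and 8.18%, and the CCAAT box in 12 of 33 (36.4%) and 1 of the 5, against 40.6% and 37.5%. The gamma activated motif lay in 1 of 33 (3.03%) and in 1 of the 5 immunoproteasome promoters (20%), against 7.38% and 8.13%. These are matches of letters in a short window and not binding sites.

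Relative to naive cells, the standard proteasome genes stood high in the differentiated cells, as a description of the 6 DMSO arrays. The median ratio of the 40 genes was 0.39 to 1.11 on these arrays, with 36 to 39 of the 40 above 0, and the median of all genes was 0.05 to 0.08. Psmd11, a scaffold subunit of the lid, had ratios of 1.05 and 2.05 in unstimulated and reactivated Th1 cells at 6 hr, 1.00 and 1.84 at 24 hr, and 0.79 and 1.83 in Th2 cells. Its reactivated samples lay above all unstimulated ones. Psmb5, the chymotrypsin-like catalytic subunit, had ratios of 0.50 and 0.89 in Th1 at 6 hr, 0.60 and 0.83 at 24 hr, and 0.18 and 0.74 in Th2. Among the immunoproteasome genes, Psmb9 had ratios of 0.65 and 1.00 in unstimulated Th1 cells at 6 and 24 hr and 0.15 in unstimulated Th2 cells, and -0.51, -0.16 and -0.10 after reactivation. Psmb8, which replaces Psmb5, had ratios of 0.25 and -0.73 in Th1 at 6 hr, 0.66 and -0.36 at 24 hr, and -0.37 and -1.20 in Th2. Psmb10, which replaces Psmb7, had ratios of -0.04 and -1.15, 0.26 and -0.83, and -0.90 and -1.66 in the same order. For all 3 genes the reactivated sample was the lower one in every pair.

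**Figure D1:**
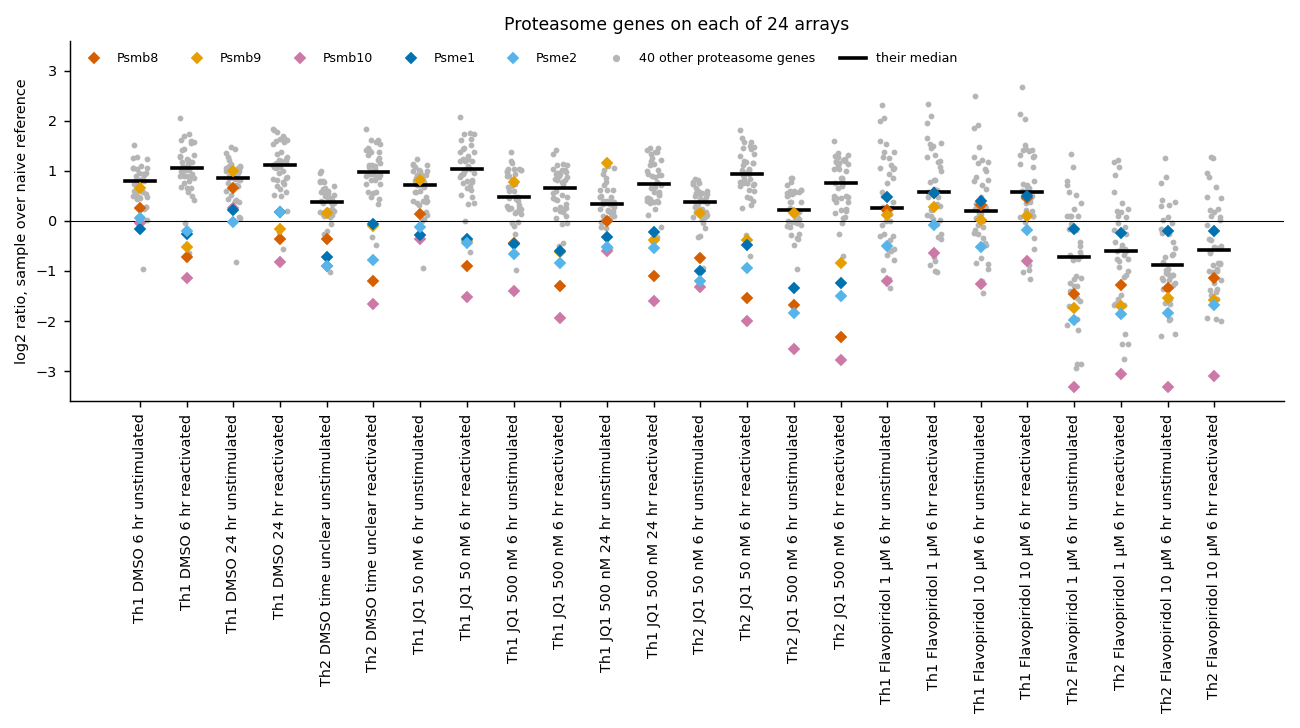
Log2 ratio of sample over naive T cells (vertical axis) on each of the 24 arrays (horizontal axis), with grey points for the 40 other proteasome genes, a black line at their median and diamonds for the 5 immunoproteasome genes. The median lies between 0.39 and 1.11 on the DMSO arrays and between -0.89 and -0.58 on the Th2 flavopiridol arrays.

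On reactivation of DMSO-treated cells 18 standard proteasome genes rose, and the inducible catalytic genes Psmb8, Psmb9 and Psmb10 fell. Of the 40 other proteasome genes 18 rose and 1 fell, while of the 5 immunoproteasome genes 0 rose and 3 fell. Among all 12535 genes tested, 21.9% rose and 29% fell (limma over 3 pairs, adjusted p below 0.05 by Benjamini-Hochberg). The median difference was 0.39 over the 40 genes and -0.05 over all genes, and 37 of the 40 lay above 0.

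Of the 11 non-ATPase subunits of the regulatory particle 6 rose. Psmd12, a lid scaffold subunit, rose by 0.81 in the Th1 6 hr pair, 0.96 in the Th1 24 hr pair and 1.49 in the Th2 pair, on average 1.09 (SE 0.17, adjusted p = 0.00246, n = 3 pairs). Psmd7, which pairs with the deubiquitinase subunit, rose by 0.80, 0.71 and 1.44, on average 0.98 (SE 0.18, adjusted p = 0.00451). Psmd11 rose by 1.00, 0.84 and 1.04, on average 0.96 (SE 0.12, adjusted p = 0.00136), which is 1.95-fold. For Psmd12 and Psmd7 the Th2 pair gave the highest value, while the 3 values of Psmd11 lay close together. Psmd14, the deubiquitinase that removes the ubiquitin chain, rose by 0.69 (adjusted p = 0.0099), and Psmd1 and Psmd6 by 0.66 and 0.54. Of the 6 ATPases Psmc5 (0.81, SE 0.18, adjusted p = 0.01) and Psmc2 (0.47, adjusted p = 0.0413) rose.

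Of the 3 standard catalytic subunits of the core particle 2 passed the test, Psmb7 (trypsin-like) at 0.77 (SE 0.14, adjusted p = 0.00458) and Psmb5 at 0.39 (SE 0.13, adjusted p = 0.0443), a call lost under several alternatives, and Psmb6 (caspase-like) had a difference of 0.25 (adjusted p = 0.159). Of the other core subunits 2 of 7 alpha genes (Psma3 0.70, Psma7 0.49) and 1 of 4 beta genes (Psmb4 0.42) rose. Among the assembly chaperones Psmg4 rose by 0.66, 0.78 and 1.14, on average 0.86 (SE 0.14, adjusted p = 0.00354), and Psmg3, its partner in building the alpha ring, by 0.71 (adjusted p = 0.0038). Psmd5, a chaperone of the ATPase ring, rose by 0.71 (adjusted p = 0.00804) and Psmd9 by 0.39 (adjusted p = 0.0434). Psmd10, also known as gankyrin and a chaperone of the same ring, fell by 0.41 (adjusted p = 0.0373), a call lost without any 1 of the 3 pairs (adjusted p = 0.075 to 0.16) and under spike-in centring (-0.18, adjusted p = 0.429). Of the activators, Psme3 rose by 0.37 (adjusted p = 0.0495) and Psme4 had a difference of 0.29 (adjusted p = 0.0933).

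All 3 inducible catalytic subunits fell. Psmb10 fell by 1.11, 1.09 and 0.76 in the Th1 6 hr, Th1 24 hr and Th2 pairs, on average by 0.98 (SE 0.13, adjusted p = 0.00168), a 1.98-fold decrease. Psmb8 fell by 0.98, 1.02 and 0.83, on average by 0.94 (SE 0.12, adjusted p = 0.00141). Psmb9, which replaces Psmb6, fell by 1.17, 1.16 and 0.25, on average by 0.86 (SE 0.21, adjusted p = 0.0144). Its fall was small in Th2 cells, and the call was lost without the Th1 6 hr pair (adjusted p = 0.072) or the Th1 24 hr pair (adjusted p = 0.0696) and when arrays were centred on spike-in probes (adjusted p = 0.0617). The cap genes Psme1 and Psme2 had differences of 0.17 (adjusted p = 0.465) and 0.02 (adjusted p = 0.936). Ifng itself had ratios of 7.15 and 8.59 in unstimulated and reactivated Th1 cells at 6 hr, 7.08 and 8.33 at 24 hr, and 0.65 and 6.2 in Th2 cells. In each pair the inducible subunits were lower in the sample where interferon gamma RNA was higher, and a link between them was not tested. The T cell genes Cd3e, Cd3g and Cd4 fell as well (3 of 3, median -0.88), and their part in these differences was not tested. All 23 calls kept their sign under the other scalings, with 1 gene absent from the authors' table, and without the Th2 pair 15 were called, 12 higher and 3 lower, against 19.3% and 26.2% of all genes. Under spike-in centring 33 of the 47 were higher and 2 lower, against 29.2% and 17% of all genes.

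**Figure D2:**
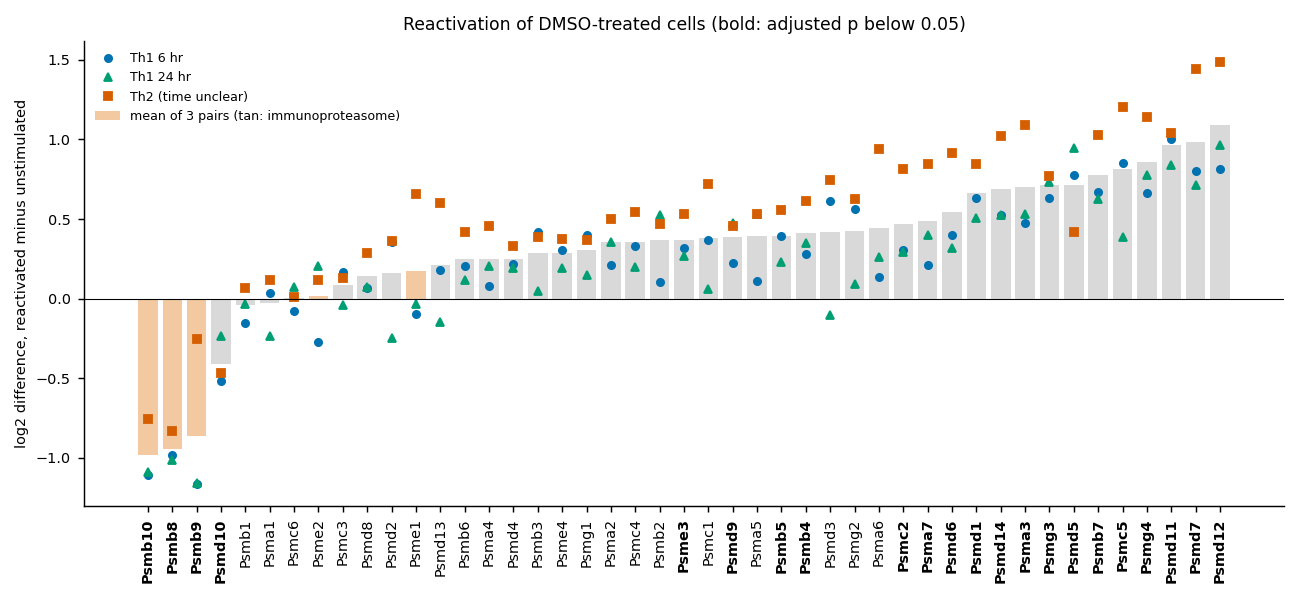
Log2 difference between reactivated and unstimulated DMSO-treated cells (vertical axis) for the 40 other and 5 immunoproteasome genes in order of their mean, with the 3 pairs as points, the mean as a bar that starts at 0 (tan for immunoproteasome genes) and called genes in bold. Psmd12, Psmd7 and Psmd11 lie highest, between 0.96 and 1.09, and Psmb8, Psmb9 and Psmb10 lie lowest, between -0.98 and -0.86.

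The reactivation difference was also read under each drug. In the 8 pairs with DMSO or JQ1 the median difference of the 40 genes upon reactivation was 0.13 to 0.60, lowest in Th1 cells with 500 nM JQ1 at 6 hr and highest in Th2 cells with 50 nM JQ1. In the 4 pairs with flavopiridol it was 0.06 to 0.30. The inducible subunits separated the pairs without overlap: Psmb8, Psmb9 and Psmb10 differed by -1.52 to -0.21 in the 8 DMSO and JQ1 pairs and by -0.04 to 0.57 in the 4 flavopiridol pairs. How many of all genes separated these pairs was not counted. Psmb8 differed by -0.98 with DMSO, 0.34 with 1 µM and 0.14 with 10 µM flavopiridol in Th1 cells at 6 hr. In Th2 cells it differed by -0.83, 0.19 and 0.19.

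The difference itself was tested as a change of the drug effect with reactivation. In the design with the 4 contexts as blocks 0 of 47 genes were called for flavopiridol (3 at an unadjusted p below 0.05). With each unstimulated and reactivated pair as its own block, a fit added after seeing the data, 4 were higher and 13 lower, against 23.6% higher and 19.8% lower of all 12449 genes. Psmb10 was higher by 1.31 (SE 0.17, adjusted p = 7.88e-04), Psmb8 by 1.12 (SE 0.13, adjusted p = 5.54e-04) and Psmb9 by 0.77 (SE 0.24, adjusted p = 0.0323), and Psmd10 by 0.54. Lower were among others Psmd11 (-0.98), Psmg4 (-0.93), Psmd7 (-0.85) and Psmd12 (-0.79), which rose in DMSO-treated cells, and Psmg2 (-1.08), Psma5 (-0.51) and Psmd3 (-0.44), which were not called there. For JQ1, 1 member was called, Psmg4, lower by the test (-0.75, SE 0.14, adjusted p = 0.0115, 13 members at an unadjusted p below 0.05), against 5.62% of all 12913 genes. Under spike-in centring 46 members were lower, against 78.1% of all genes. With the pair as block 0 members and 0 of all genes were called (590 genes at an unadjusted p below 0.05). That fit pooled the higher and lower JQ1 doses, while the Psmg4 value above is for the higher dose. The change in calls therefore cannot be put down to the block alone. Drug effects and reactivation share the DMSO samples in these fits.

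**Figure D3:**
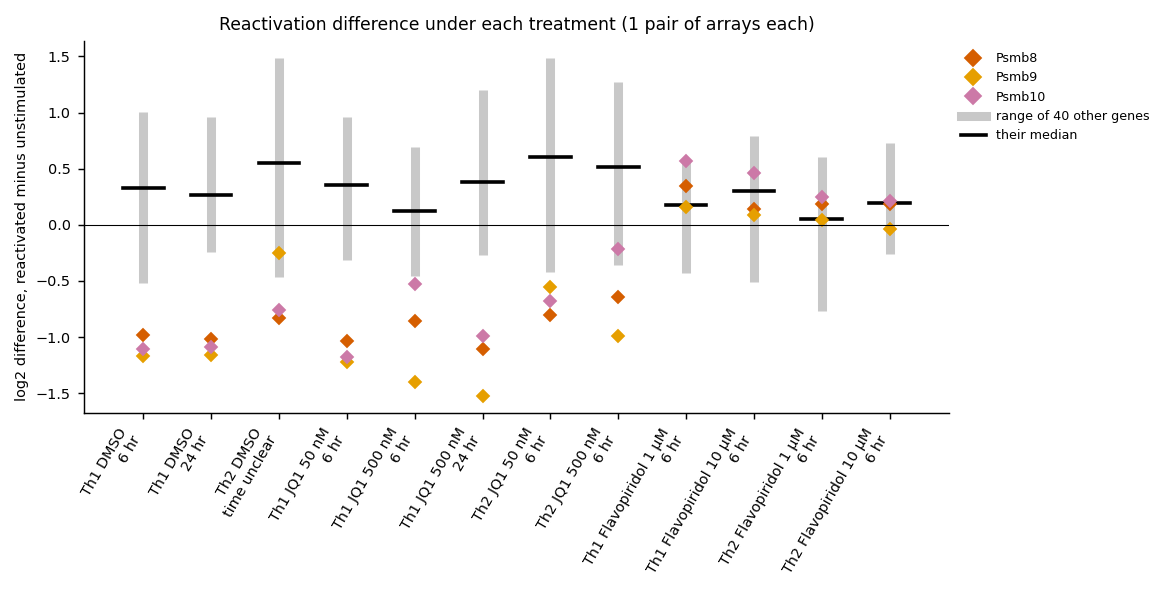
Log2 difference between reactivated and unstimulated cells (vertical axis) in each of the 12 treatment pairs, with a grey bar for the range of the 40 other proteasome genes, a black line at their median and diamonds for Psmb8, Psmb9 and Psmb10. The inducible subunits lie between -1.52 and -0.21 with DMSO or JQ1 and between -0.04 and 0.57 with flavopiridol.

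Flavopiridol at 10 µM lowered most proteasome genes. Of the 40 other proteasome genes 24 fell and 1 rose, against 33.5% and 15.4% of all 12449 genes (limma, 4 contexts). The median difference was -0.80 over the 40 genes and -0.22 over all genes, and by context the median of the 40 was -0.43 in unstimulated and -0.42 in reactivated Th1 cells and -1.09 and -1.52 in Th2 cells, whose control is of unclear time. Flavopiridol and its DMSO control lay on different slides, so slide and drug cannot be told apart here. The summed myeloid markers were 4560 to 13600 on flavopiridol arrays and 11600 to 19200 on DMSO arrays. Of the 2 myeloid markers tested, however, 1 was called lower and 1 higher at 10 µM. In unstimulated Th1 cells at 6 hr Itgam had ratios of -0.95 with DMSO and -3.44 at 10 µM, and Csf1r -0.23 and 1.43. The part of these markers in the differences was not tested. With slide as a random block 18 of the 47 genes were called, all lower, against 23.4% lower of all genes.

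The largest fall was that of Psmc2, an ATPase of the base. Its ratios in DMSO-treated cells were 0.82 and 1.13 in Th1 and 0.23 and 1.04 in Th2 cells (unstimulated, then reactivated), and at 10 µM flavopiridol they were -1.20 and -0.89 in Th1 and -1.99 and -1.96 in Th2 cells. The groups did not overlap, and Psmc2 fell by 2.31 (SE 0.27, adjusted p = 2.30e-04, lower in 4 of 4 contexts), a 4.97-fold decrease. Psmc1, which forms a pair with Psmc2 in the ATPase ring, fell by 1.98 (SE 0.37, adjusted p = 0.00231). All 4 chaperones of the core particle fell: Psmg3 by 2.21 (SE 0.21, adjusted p = 7.85e-05), Psmg2 by 1.41, Psmg1 by 1.36 and Psmg4 by 1.10. Psmg3 stood between 0.64 and 1.42 in the 4 DMSO samples of this comparison and between -1.39 and -0.85 at 10 µM, again with no overlap. For neither gene was the share of all genes without overlap counted. Psmd5 fell by 1.76 (SE 0.20, adjusted p = 1.92e-04), the lid subunits Psmd12 by 1.84 (SE 0.41, adjusted p = 0.00602) and Psmd7 by 1.58 (SE 0.34, adjusted p = 0.00456).

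Among the catalytic subunits Psmb5 fell by 0.74 and 0.81 in unstimulated and reactivated Th1 cells and by 2.49 and 2.68 in Th2 cells, on average by 1.68 (SE 0.35, adjusted p = 0.00401). Psmb6 fell by 1.30 (SE 0.29, adjusted p = 0.00614), and Psmb7 had a difference of -0.58 (adjusted p = 0.109). Psmd8, a lid subunit, was the 1 gene called higher (0.37, adjusted p = 0.0296), and it turned negative under median centring (-0.72), spike-in centring (-1.32) and a spike-in shift after loess (-0.41). Psmd11, which rose with reactivation, had a difference of -0.58 (adjusted p = 0.0915). The spread within the family was wide: Psmd2, a large base subunit that docks ubiquitin shuttles, differed by 0.01 (adjusted p = 0.96), and Psmd13 by 0.41 (adjusted p = 0.068). Second probes of 4 genes gave other sizes: -0.88 for Psmd12, -0.95 for Psmb5, -1.15 for Psmc1, and -1.09 for Psmd9, whose brightest probe gave 0.24.

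The immunoproteasome genes had mixed values. Psmb10 was called lower (-1.18, SE 0.41, adjusted p = 0.0414) with differences of -1.22, 0.35, -2.42 and -1.45 in unstimulated and reactivated Th1 and Th2 cells, so the sign differed in reactivated Th1 cells. Psme2 was called lower at -0.60 (SE 0.20, adjusted p = 0.0342), but its second probe gave 0.20. Both calls were lost without either Th2 context and without unstimulated Th1 cells (adjusted p = 0.112 to 0.156). Psmb8 differed by 0.06, 1.19, -0.96 and 0.06 and was not called (mean 0.09, adjusted p = 0.849), nor were Psmb9 (-0.80, adjusted p = 0.128) and Psme1 (0.43, adjusted p = 0.0678). At 1 µM, 23 of 47 genes were lower and 3 higher, against 35.5% and 16.3% of all genes, and Psmc2 fell by 2.65 (adjusted p = 8.69e-05). Between 1 and 10 µM the median of the 40 genes' own differences was -0.11 and -0.05 in unstimulated and reactivated Th1 cells and -0.06 and 0.08 in Th2 cells. In Th1 contexts alone 4 members were higher and 13 lower, shares near those of all genes there (12% and 25.1%). In Th2 contexts alone 19 were called, all lower, against 9.9% lower of all genes, and without unstimulated Th2 cells 17, all lower, against 28.9%. The median over the 40 genes of each gene's difference in drug effect between cell types was 0.79 (Th1 above Th2), but the test of that difference called 0 members (25 at an unadjusted p below 0.05) and 2 of all 12449 genes. Under spike-in centring it called 34 members, all higher in Th1, against 11.3% of all genes.

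JQ1 at 500 nM lowered standard and immunoproteasome genes. Of the 40 other proteasome genes 23 fell and 2 rose, and of the 5 immunoproteasome genes 4 fell and 0 rose, against 29.9% lower and 17.7% higher of all 12913 genes. The median difference of the 40 was -0.29, and -0.07 over all genes; by context it was -0.20 and -0.46 in unstimulated and reactivated Th1 cells and -0.18 and -0.27 in Th2 cells. The 4 lowest differences in the family were those of the called immunoproteasome genes.

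Psmb10 fell by 1.37, 0.79, 1.66 and 1.12 in unstimulated and reactivated Th1 and Th2 cells, on average by 1.23 (SE 0.13, adjusted p = 3.95e-05), a 2.35-fold decrease. Psmb8 fell by 0.70, 0.58, 1.32 and 1.13, on average by 0.93 (SE 0.11, adjusted p = 1.06e-04). Psme2 fell by 0.75 (SE 0.07, adjusted p = 2.52e-05) and Psme1 by 0.61 (SE 0.13, adjusted p = 0.00265), both lower in 4 of 4 contexts. Psmb9, the neighbour of Psmb8 in the major histocompatibility complex, was not called at -0.18 (adjusted p = 0.252), with 0.12, -0.11, 0.01 and -0.73.

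All 6 ATPases and all 3 standard catalytic subunits fell. Psmc4 fell by 0.53 (SE 0.07, adjusted p = 2.21e-04) and Psmc3 by 0.49 (adjusted p = 1.82e-04). Psmb7 fell by 0.44 (adjusted p = 0.01), Psmb5 by 0.30 (adjusted p = 0.00594) and Psmb6 by 0.28 (adjusted p = 0.00867). Of the alpha ring 4 of 7 fell, led by Psma6 at 0.60 (SE 0.10, adjusted p = 7.06e-04) and Psma2 at 0.49 (adjusted p = 3.76e-04), and of the core chaperones 3 of 4, led by Psmg2 at 0.50 (adjusted p = 0.00399). Of the 11 non-ATPase subunits 4 fell. Psme4, the large ATP-independent activator also known as PA200, rose by 0.74, 0.20, 0.67 and 0.88, on average 0.62 (SE 0.11, adjusted p = 9.68e-04). Psmd3 was called higher at 0.22 (adjusted p = 0.0359) but turned negative under median centring (-0.057), spike-in centring (-0.33) and a spike-in shift (-0.32).

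The lower dose gave no call. At 50 nM 0 of 47 genes passed (3 at an unadjusted p below 0.05), against 0.256% higher and 0.0852% lower of all genes, which were 44 calls and 1701 genes at an unadjusted p below 0.05. Th1 cells and their DMSO control shared a slide, and in Th1 contexts alone 11 members were called, all lower, against 15.1% lower of all genes. In Th2 cells, where they did not, 1 was higher and 9 were lower, and the lower share was near that of all genes (17.6%). Without the context block 1 was called, lower, against 4.18% lower of all genes, while the median difference of the 40 genes stayed at -0.29. The test of a difference between cell types called 0 members (5 at an unadjusted p below 0.05) and 0 of all genes. In Th1 cells at 24 hr, 500 nM JQ1 gave median differences of -0.46 in unstimulated and -0.32 in reactivated cells over the 40 genes, beside -0.20 and -0.46 at 6 hr, and of -0.55 and -0.71 over the 5 immunoproteasome genes, beside -0.70 and -0.58. There was 1 array each, so the times were not tested.

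**Figure D4:**
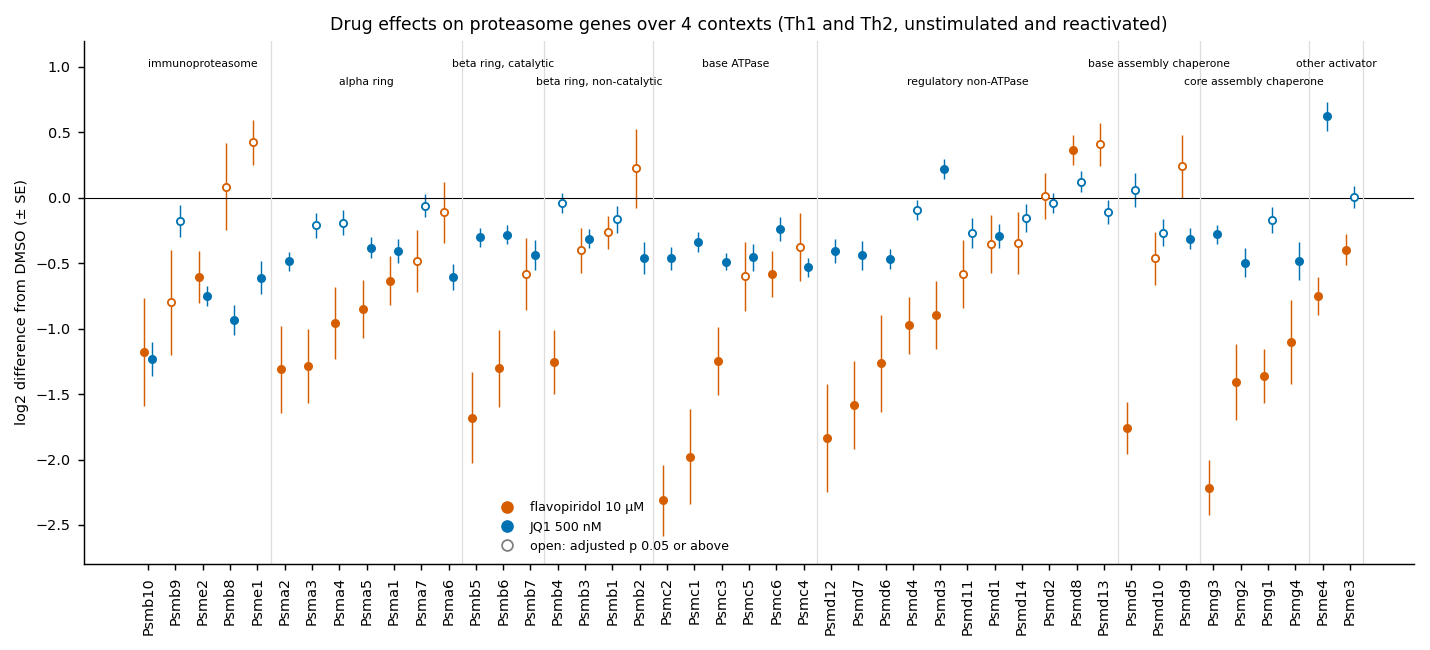
Log2 difference from DMSO (vertical axis) of the 40 other and 5 immunoproteasome genes, grouped by role, at 10 µM flavopiridol and 500 nM JQ1. Points are means over 4 contexts, lines are ± SE, and open points have an adjusted p of 0.05 or above; Psmc2 is lowest with flavopiridol at -2.31, and Psmb10 with JQ1 at -1.23.

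The drugs were also compared directly within the 4 contexts, at doses that differ in kind and need not match in strength. In every context the JQ1 and flavopiridol samples lay on different slides, so slide and drug cannot be told apart here. Flavopiridol arrays were lower in 16 members and higher in 2, against 30.7% and 18.8% of all 11917 genes. The lower ones were led by Psmg3 (-1.93, SE 0.22, adjusted p = 0.00135), Psmc2 (-1.85), Psmd5 (-1.82), Psmc1 (-1.64) and Psmd12 (-1.43). Higher were the immunoproteasome genes Psme1 (1.04, adjusted p = 0.00254) and Psmb8 (1.02, adjusted p = 0.0187), with Psmb8 at 0.76, 1.77, 0.35 and 1.18 in the 4 contexts. Both lost the call under spike-in centring (adjusted p = 0.322 and 0.441), where 30 members were lower and 0 higher, against 50.1% and 1.14% of all genes, and 9 were lower and 0 higher with a spike-in shift, against 16.7% and 3.24%.

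Most proteasome genes were called higher in Th1 than in matched Th2 samples, though other scalings ended many of the calls. The median difference of the 40 genes shrank to 0.19 without the flavopiridol arrays and to 0.23 with slide as a fixed block. In 10 matched conditions 33 of the 40 other proteasome genes and all 5 immunoproteasome genes were higher in Th1 cells and 0 were lower, against 17% higher and 18.5% lower of all 13137 genes. Spike-in centring called 5 of the 47 (7.89% higher of all genes), median centring 13 (10.5%), a spike-in shift 13 (7.57%) and the fit without the block 7 (2.98%), all higher. The median difference of the 40 genes was not smaller there: 0.90, 0.82, 0.79 and 0.57 in the same order, beside 0.57 as analysed. The values by treatment are given as a description, since the tests of the drug effects by cell type called 0 members and the Th1 and Th2 samples of each drug lay on different slides. In DMSO-treated cells, whose Th1 and Th2 samples shared a slide but may differ in time, the median over the 40 genes was 0.31 unstimulated and 0.09 reactivated. It was 0.33 and 0.09 with 50 nM JQ1, 0.35 and -0.07 with 500 nM JQ1, 1.15 and 1.24 with 1 µM flavopiridol, and 0.99 and 1.10 with 10 µM.

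Psma2, an alpha ring subunit, was higher in Th1 cells in 10 of 10 conditions, by 0.51 and 0.21 with DMSO and by 1.83 to 2.02 with flavopiridol, on average by 0.98 (SE 0.23, adjusted p = 0.00665). The alpha ring subunit Psma1 (0.68), the lid subunit Psmd3 (0.64), the ATPase Psmc3 (0.60) and the beta ring subunit Psmb3 (0.57) were likewise higher in all 10. Without the flavopiridol arrays these differences were 0.34 for Psma2, 0.36 for Psma1, 0.23 for Psmd3 and 0.27 for Psmb3, and Psmc3 was not called (0.13, adjusted p = 0.124). The 4 core chaperones and the 2 activators Psme3 and Psme4 gave 0 calls. Without the flavopiridol arrays 15 members were called, 14 higher and Psmg1 lower (-0.30), against 14.5% higher and 14.1% lower of all genes, and the median of the 40 was 0.19. With slide as a fixed block 3 were called, and among reactivated arrays alone 2, all higher, shares near or below those of all genes (6.08% and 4.85% higher).

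The immunoproteasome genes Psmb8, Psmb10 and Psme2 kept the call without flavopiridol and with the slide block. With the slide block the difference rests on the DMSO samples alone, since only their Th1 and Th2 samples shared a slide. It is therefore no support apart from the DMSO values, and the time of these Th2 samples is unclear. Psmb10 was higher in Th1 in 10 of 10 conditions, by 0.86 and 0.51 with DMSO, on average by 1.37 (SE 0.21, adjusted p = 4.71e-04), by 0.80 without flavopiridol arrays and by 0.68 with the slide block. Psmb8 was higher by 1.16 (SE 0.14, adjusted p = 8.96e-05), by 0.81 and by 0.55 in the same order. Psme2 was higher by 1.10 (SE 0.12, adjusted p = 4.25e-05), by 0.83 and by 0.78. Psmb9 (0.86, adjusted p = 0.0136) was not called without flavopiridol (0.26, adjusted p = 0.213), and Psme1 (0.55, adjusted p = 0.00127) was called there (0.46) but not with the slide block (0.19). The summed B cell markers were lower in Th1 samples (3 of 4 genes called) and the 2 CD8 T cell markers higher, and their part in these differences was not tested.

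**Figure D5:**
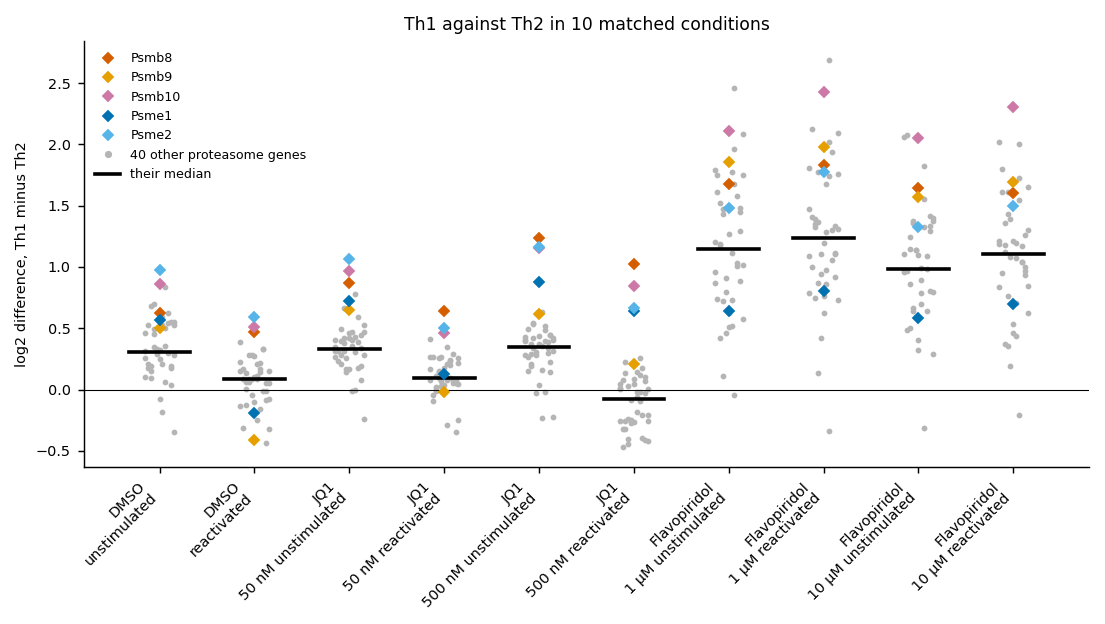
Log2 difference between Th1 and matched Th2 samples (vertical axis) in each of the 10 conditions, with grey points for the 40 other proteasome genes, a black line at their median and diamonds for the 5 immunoproteasome genes. The medians of the 4 flavopiridol conditions lie at 0.99 to 1.24, and those of the 6 DMSO and JQ1 conditions at -0.07 to 0.35.

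Lists of genes that work with the proteasome are small, and many of their counts lie near the shares of all genes. On reactivation, where 21.9% of all genes rose and 29% fell, 4 of 12 proteasome-associated factors rose and 1 fell, led by the ubiquitin receptor Adrm1 (0.86, SE 0.15, adjusted p = 0.00427) and the ligase Ube3c (0.70). Of 11 shuttle and segregase genes 5 rose and 1 fell, among them Ubqln1 (1.06), Nsfl1c (0.90), Rad23b (0.88) and the protease Ddi2 (0.83), which cleaves the Nfe2l1 product. Of 6 regulators of proteasome genes Nfe2l1 rose by 1.13 (SE 0.15, adjusted p = 0.00165) and Bach1 by 0.87, and 4 fell, led by Keap1 (-1.30) and Stat3 (-0.83). None of the 4 ubiquitin genes changed by the test. Of 8 ubiquitin activation genes 3 rose and 1 fell. Of 10 genes of antigen processing 2 rose (Erap1 1.02, Calr 1.01) and 2 fell, among them the transporter gene Tap2 (-1.04).

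With 10 µM flavopiridol, where 33.5% of all genes fell and 15.4% rose, 2 of the 4 ubiquitin genes fell and 0 rose, and the polyubiquitin gene Ubb fell by 3.98 (adjusted p = 6.04e-05). Of the 6 regulators 5 fell, led by Nfe2l2 (-2.09), Bach1 (-1.62) and Keap1 (-1.40), with Nfe2l1 at -0.96. The associated factors gave 4 falls, led by Zfand5 (-2.49) and Akirin2 (-1.98), and 2 rises among 12, close to the shares of all genes. The shuttles gave 4 falls and 1 rise, and ubiquitin activation 3 falls. In antigen processing the interferon response factor Irf1 fell by 4.31 and Tap1 by 1.14, while Pdia3 and Tapbp rose.

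With 500 nM JQ1, where 29.9% of all genes fell and 17.7% rose, 5 of the 10 antigen processing genes fell and 1 rose: Tap2 (-0.85), Erap1 (-0.72), Tap1 (-0.63) and Nlrc5 (-0.62), which activates the genes of the class I pathway, were among the falls, and Calr rose by 0.65. Of the regulators 1 rose and 2 fell, of the associated factors 2 rose and 5 fell, of the shuttles 3 rose and 1 fell, of ubiquitin activation 3 rose and 1 fell, and of the ubiquitin genes 1 rose. Where 17% of all genes were higher and 18.5% lower in Th1 samples, 6 of the 10 antigen processing genes were higher, among them Nlrc5 (1.08), B2m (0.73) and Tap2 (0.63), as were 6 of 12 associated factors, 5 of 11 shuttles, 3 of 6 regulators and 3 of 8 ubiquitin activation genes, with 0 lower in these lists. Of the ubiquitin genes 1 was higher and 2 were lower.

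Loess sets the bulk of each array to the same level, so the differences above are relative to it. Under spike-in centring the median of all genes tested moved from -0.22 to -1.66 for flavopiridol, from -0.07 to -0.55 for JQ1, from -0.05 to 0.19 for reactivation and from -0.01 to 0.11 for Th1 against Th2. The spike-in log2 ratios were -0.82 to 0.90 over arrays, the highest being reactivated Th1 cells with 500 nM JQ1 at 6 hr. Under the scalings run for reactivation, 10 µM flavopiridol, 500 nM JQ1, Th1 against Th2 and the drugs against each other, called members with a value kept their sign, except Psmd8 and Psmd3 as given and Psme3, which fell with flavopiridol (-0.40) but turned with the sample channel alone and in the authors' table.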

How the data were processed

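Total RNA of each sample was labelled with Cy3 and naive T cell RNA with Cy5, and hybridized to two-colour Agilent arrays. The authors deposited scanner output of Agilent Feature Extraction 10.7.1.1, whose median signals and local background are linear intensity values, and a table of log2 ratios whose direction and scale are not given in the sources used here. The latter was set against the ratios computed here (r of 0.981 to 0.996) and served as an alternative. The software's deposited log10 ratio, turned to sample over reference, was another.

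From the intensity values, background was corrected with normexp (offset 50), loess was applied within arrays, and control and outlier spots (234 to 331 per array) were left out. Ratios were fitted with limma 3.58.1 in R 4.3.3, with Benjamini-Hochberg adjustment over all genes and a threshold of 0.05. A gene was tested if Cy3 stood well above background in 3 or more of the arrays fitted. Symbols came from RefSeq through each probe's accession, the brightest probe standing for a gene. Reactivation was fitted on 6 DMSO arrays with the pair as block, each drug on 12 arrays with context as block, and Th1 against Th2 on 20 arrays with the matched condition as block.

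The genes named are the immunoproteasome and standard catalytic genes and, per comparison, the members with the largest differences among those called and of one sign in every pair, up to 5 each way; others were named after their values were seen. The members, lists and tests were chosen with earlier results of these data known. Depth does not apply to arrays; the number of arrays limits the precision. The fits were tested on simulated data. Values of a few genes are not reported here.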

Additional observations from a re-analysis of the deposited data

Results flagged for a closer look

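The following members differed between unstimulated and reactivated cells in their response to a drug, by a test of the difference itself. For 500 nM JQ1, Psmg4 differed by -0.75, in the fit with contexts as blocks. It was not called with the pair as block (-0.41), but that fit pooled the lower JQ1 dose with the higher one. The lost call therefore cannot be put down to the block alone. For flavopiridol the calls came from the fit with each unstimulated and reactivated pair as its block, chosen after seeing the data. That fit pooled 1 and 10 µM. At 10 µM none was called with contexts as blocks, where 3 had an unadjusted p below 0.05. The drug effect was higher in reactivated cells for Psmb10 (1.31), Psmb8 (1.12), Psmb9 (0.77) and Psmd10 (0.54). It was lower for the chaperones Psmg2 (-1.08), Psmg4 (-0.93), Psmg3 (-0.78) and Psmd5 (-0.71), and for the regulatory particle subunits Psmd11 (-0.98), Psmd7 (-0.85), Psmd12 (-0.79), Psmd14 (-0.71), Psmd1 (-0.62), Psmc5 (-0.51) and Psmd3 (-0.44). In the core particle it was lower for Psmb7 (-0.62) and Psma5 (-0.51).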

How the results depend on the processing

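Counts are members called of 47 unless said. Spike-in centring gave 35 for reactivation, 45 for flavopiridol, 5 for Th1 against Th2, 30 for flavopiridol against JQ1, 46 for JQ1 by reactivation and 34 for flavopiridol by cell type, beside 23, 28, 39, 18, 1 and 0. Much of this is shared by all genes, of which 91.2% fell for flavopiridol, 50.1% for flavopiridol against JQ1 and 78.1% for JQ1 by reactivation. A spike-in shift after loess gave 35 for reactivation (32.9% of all genes higher, 16.7% lower) and 13 for Th1 against Th2 (7.57% higher). It gave 9 for flavopiridol against JQ1 (16.7% lower) and 46 for JQ1 by reactivation (85.5% lower). Median centring gave 13 for Th1 against Th2 and 2 for JQ1 by reactivation. Without the context or pair block 14 were called for flavopiridol, 1 for JQ1, 7 for Th1 against Th2 and 0 for JQ1 by reactivation, beside 28.8% of all genes lower, 4.18% lower, 2.98% higher and 0.031% lower. Slide as a random block gave 18 for flavopiridol (23.4% of all genes lower) and 6 for flavopiridol by reactivation (18.3% higher, 13.3% lower). It gave 3 for JQ1 by reactivation (6.27% lower) and could not be fitted beside the pair for reactivation. Slide as a fixed block gave 3 for Th1 against Th2, reactivated arrays alone 2, and no flavopiridol arrays 15. Th1 contexts alone gave 17 for flavopiridol and 11 for JQ1, and Th2 contexts alone 10 for JQ1. The lower JQ1 dose gave 0. For JQ1 by reactivation the sample channel alone gave 2, the software's ratio 0, the mean of all probes 4, genes above background on every array 4, and the higher dose alone 0. No filter on dim probes gave 1 of 49 for flavopiridol by cell type. With each unstimulated and reactivated pair as block and both doses of a drug pooled, 17 were called for flavopiridol by reactivation and 0 for JQ1 by reactivation.

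Leaving out 1 pair or context gave 15 to 16 for reactivation, 17 to 27 for flavopiridol, 24 to 28 for JQ1, 32 to 43 for Th1 against Th2, 12 to 20 for flavopiridol against JQ1 and 0 to 0 for JQ1 by reactivation. Reversed values among the genes followed under every alternative were Psmd8 with flavopiridol (-0.72, -1.32 and -0.41) and Psmd3 with JQ1 (-0.057, -0.33 and -0.32), under median centring, spike-in centring and the spike-in shift. Psme3, not followed there, turned with flavopiridol in the sample channel alone and in the authors' table. The cause was not tested. The other 118 counts stayed within 1.5 times their main value. Of the values of named members under alternatives, 1043 kept their sign and side of the threshold, 174 lost the call, 18 gained it, 6 reversed, and 25 changed sign without a call on either side, among them Psmb8 with flavopiridol under median centring (-0.40), spike-in centring (-1.01) and the spike-in shift (-0.69). The median of the 40 other genes moved under spike-in centring to 0.65 for reactivation, -2.34 for flavopiridol, -0.87 for JQ1, 0.90 for Th1 against Th2 and -1.50 for flavopiridol against JQ1. With the spike-in shift it was 0.68, -1.57 and -0.83 for the first 3, and median centring gave -1.74 for flavopiridol, -0.59 for JQ1 and -1.18 for flavopiridol against JQ1. The number of arrays limits all comparisons, since each condition has 1, and dim probes have little signal over background.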
